A study of Mus musculus with 11 samples.

Results

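The small subunit of the cytosolic ribosome is built from ribosomal RNA and a set of proteins encoded by the Rps genes. Genes were taken as members where the GRCm38 annotation called them protein-coding and the symbol was Rpsa or began with Rps and a digit, leaving out the S6 kinase genes (Rps6k) and Rps19bp1, which encodes a binding partner of Rps19. This rule took 34 of the 54838 genes counted. CPM below are a gene's counts scaled by its library's total. A total of 33 members had more than 1 CPM in at least 4 libraries and were tested, and Rps12-ps3 was below that level.

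RNA was sequenced from E14 cells, a mouse embryonic stem cell line, kept without feeder cells on gelatin in a serum replacement medium with LIF, a cytokine that holds such cells in the pluripotent state. In 3 libraries the cells had received a scrambled control siRNA, in 4 libraries CMTR1 siRNA 1 and in 4 libraries CMTR1 siRNA 2, each for 36 h. The CMTR1 siRNAs target Cmtr1, which encodes the methyltransferase that adds a methyl group to the ribose of the first transcribed nucleotide of capped RNA. Total RNA was depleted of ribosomal RNA and made into strand-specific libraries. Counts summed to between 6738478 and 8382318 per library. The study's methods give 3 biological replicates for sequencing, while each CMTR1 siRNA has 4 libraries, and the labels do not say which libraries of a group came from separate cultures. All 11 are used and n counts libraries, so the p-values measure the spread between these libraries, which may be technical.

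The small subunit binds the mRNA and the initiator tRNA and decodes the message. It has a head, which holds the tRNAs and can swivel, a beak that projects from the head, and a body with a platform. Mammalian ribosomal protein mRNAs typically start with a C followed by an uninterrupted run of pyrimidines, the terminal oligopyrimidine (TOP) motif, and their translation is controlled through mTOR and the RNA-binding protein LARP1. Ribosomal protein genes are expressed at high levels in dividing cells, and embryonic stem cells are rich in their mRNAs. Most of these genes also have processed pseudogenes, copies of the spliced mRNA elsewhere in the genome.

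To show the start regions of the genes on which the comparisons turn, the bases around the annotated transcription start were read from RefSeq (GRCm38.p6), which held 25 of the 34 members. The start is the annotated position and was not measured in these cells, and it lay away from the GENCODE start of the transcript used for lengths by 769 bases in Rps10, 120 in Rps12, 96 in Rps7, 48 in Rps9, 37 in Rps16, 29 in Rps3 and 3 in Rps27. Each sequence runs 5′ to 3′ on the gene's strand from 15 bases before the start to 15 bases from it onward, 30 in all, and capitals mark the longest unbroken run of C and T beginning within 10 bases of the start, the first where runs tie. The genes are those that fell with CMTR1 siRNA 2, in order of adjusted p, and those with the highest log2 fold changes with that siRNA. Among those without a matching entry were Rps29 and Rps27a.
Rps27, chr3:90213634-90213663, minus strand: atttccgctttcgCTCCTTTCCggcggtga
Rps3, chr7:99483695-99483724, minus strand: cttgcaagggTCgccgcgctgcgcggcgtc
Rps10, chr17:27635230-27635259, minus strand: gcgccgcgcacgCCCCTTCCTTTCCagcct
Rps9, chr7:3704026-3704055, plus strand: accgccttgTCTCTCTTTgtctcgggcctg
Rps12, chr10:23787195-23787224, minus strand: taccgtcatgcggccaccgccggCCTTTTC
Rps16, chr7:28350674-28350703, plus strand: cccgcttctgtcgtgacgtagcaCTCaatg
Rps7, chr12:28635939-28635968, minus strand: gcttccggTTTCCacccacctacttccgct
Rps27l, chr9:66946071-66946100, plus strand: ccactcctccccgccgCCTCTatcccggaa

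The run was 13 bases long in Rps10, 11 in Rps12, 9 in Rps27 and Rps9, 5 in Rps7 and Rps27l, 3 in Rps16 and 2 in Rps3. In Rps12 it went on past the printed bases. At these starts both short and long runs occurred among the genes that fell, and both genes printed from the other end of the order had runs between them in length. Over the 25 members with an entry the median run was 6 bases (2 to 13), and over the 27025 genes of the table it was 4 bases (0 to 49). CTTTC or CTTTT, searched on the sense strand from 20 bases before to 20 after the start, was found in 8 of the 25 members (32%) and in 10.9% of all genes of the table. Of the 6 members with an entry that fell with siRNA 2, 3 held it. TATAA, on the sense strand from 40 to 20 bases before the start, was found in 4 members (16%, against 4.06% of genes). CCGGAAG, a core bound by ETS factors, lay on either strand of the 300 base window in 11 members (44%, against 9.93%), and AAGATGG, a core bound by YY1, in 5 members (20%, against 7.28%). The last pair of motifs shares letters and can overlap, which no member and 5 genes of the table showed. These matches describe the letters around annotated starts, and a window without a match says only that the letters are not in it.

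The 34 members lay on 14 chromosomes, with 9 on chromosome 7, 4 each on chromosomes 9 and 17, and 3 each on chromosomes 4 and 10. The transcript used for each gene's length was short, with a median of 638.5 nt (271 to 3706 nt), of which a median of 436.5 nt was coding (168 to 885 nt). Depth was high for most members, since 31 had at least 500 reads in every library. Their within-group coefficient of variation had a median of 3.32%. Sequence shared with pseudogenes and paralogs limits how well reads can be assigned. In 23 members over 10% of all 75-nt words, the length of a read, also occurred on either strand in transcripts of another gene. In 18 members over 50% of the words of the transcript used did. Differences in such genes are uncertain where the counting could split reads between copies. Fragments were read from both ends, so a pair of reads can reach beyond a shared word. The shares may therefore overstate how many reads are ambiguous.

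Cmtr1 (ENSMUSG00000024019, chr17:29660595-29705979, plus strand), the gene targeted, was examined first. It had 21.3, 21.7 and 17.9 CPM with control siRNA, 21.1, 21.3, 16.2 and 18.04 CPM with siRNA 1, and 15.6, 16.8, 16.4 and 19.5 CPM with siRNA 2. The groups overlapped, and no library of either CMTR1 siRNA stood far below the control libraries. Means were 20.3 ± 2.10 (SD, n = 3), 19.2 ± 2.45 (SD, n = 4) and 17.1 ± 1.68 CPM (SD, n = 4). Neither siRNA's difference passed the test, at a log2 fold change of -0.088 (SE 0.11, adjusted p = 0.743) for siRNA 1 and -0.25 (SE 0.11, adjusted p = 0.144) for siRNA 2. This mRNA rested on 110 to 176 reads per library. Of its exon bases, 36.3% lay in another gene on the same strand and 75.8% on either strand. Searched on both strands, 86.8% of its transcript's 75-nt words occurred in another gene's transcripts. Strand-specific reads can tell opposite strands apart where the counting uses the strand, and that setting is not given. The counts therefore give a limited check of the labels. The names of the groups below are those of the labels.

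Levels were compared between members per kilobase of transcript with control siRNA. Rps12, which lies in the beak, was highest at 1290 ± 7.80 CPM per kb (SD, n = 3). Also near the top were Rps18 (874 ± 19.2), Rps28 (863 ± 33.2) and Rps15 (857 ± 36.0 CPM per kb), and the levels from Rps18 to Rps15 did not differ beyond their SD. The median over members was 586 CPM per kb. At the other end stood Rps10 with 62.5 ± 4.03, Rps27rt with 2.97 ± 0.83 and Rps12-ps3 with 0.169 CPM per kb. Rps27rt is a retrogene copy of Rps27 and rested on 6 to 12 reads per library, and Rps12-ps3, annotated as protein-coding with all of its words found in Rps12, had 0 or 1 read. Of the words of the Rps10 transcript, 90.1% occur in another gene. The order depended on the length used. Per kilobase of coding sequence Rps12 stayed highest at 1609 CPM per kb, whereas Rps20 moved from rank 31 (123 CPM per kb of transcript) to rank 4 (1270 CPM per kb of coding sequence), Rps24 from rank 24 to rank 3, and Rps29 from rank 10 to rank 2.

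**Figure D1:**
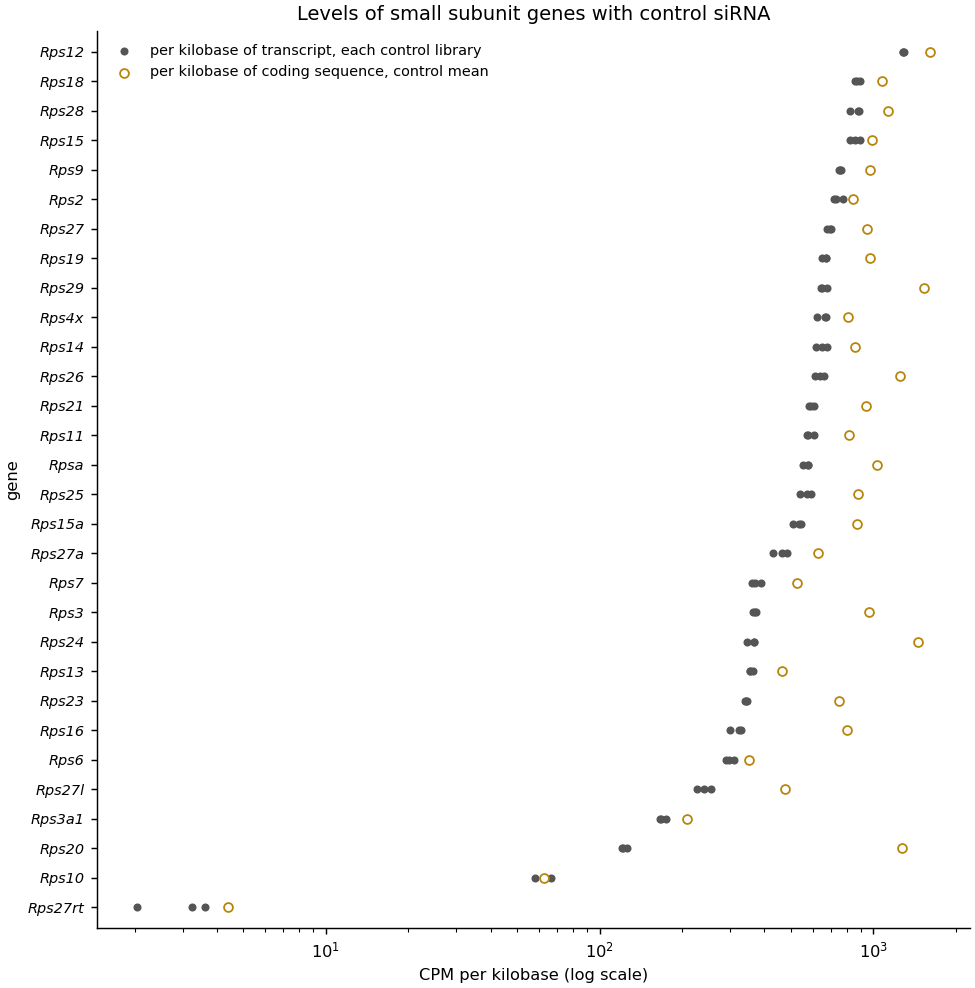
Level of 30 small subunit genes with control siRNA in CPM per kilobase on a log axis, with filled points for each of the 3 control libraries per kilobase of transcript and open circles for the control mean per kilobase of coding sequence. Rps12 lies highest on both scales, Rps10 and Rps27rt lie far below the others, and Rps12-ps3 is not drawn.

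Whether CMTR1 siRNA 2 changed the mRNAs of the small subunit was tested gene by gene within a fit over all 16073 genes (edgeR quasi-likelihood, Benjamini-Hochberg adjusted p of at most 0.05). A total of 8 of the 33 members tested fell and 0 rose, while 3.55% of all genes tested fell and 6.17% rose. The log2 fold change was below 0 in 33 of 33 members under each scaling of the libraries tried, against 42.9% of all genes tested with scaling to total counts and 48.9% with TMM factors. The median was -0.078 (5.26% lower) over members and 0.029 over all genes tested, so the differences were small, and single members ranged from -0.30 to -0.0025. In 15 members every siRNA 2 library lay below every control library, which was so for 6.99% of all genes tested. At an unadjusted p under 0.05 there were 13 members (39.4%, against 23.2% of all genes tested). Without control replicate 1, 2 or 3 the number of members that fell was 4 each time. Over all genes tested, 571 fell with all libraries and 477, 360 and 292 in those fits. Among the 11 members that share at most 10% of their words, 3 fell. Fewer cells of a kind and less RNA per cell cannot be told apart in such bulk RNA, and as CPM are shares of a library, neither can less of these mRNAs and more of others.

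Of the 14 proteins of the head and beak, 6 fell at the mRNA level with siRNA 2, where 3.55% of all genes tested fell. The median log2 fold change of the group was -0.094 with siRNA 2 and -0.059 with siRNA 1. Rps29 (ENSMUSG00000034892, chr12:69157722-69159186, minus strand) encodes a small zinc-binding protein of the head. It had 263, 254 and 252 CPM with control siRNA, 256, 238, 234 and 233 CPM with siRNA 1, and 220, 230, 224 and 215 CPM with siRNA 2. All siRNA 2 libraries lay below all others, whereas siRNA 1 replicate 1 lay among the controls. Group means were 256 ± 5.83 (SD, n = 3), 240 ± 10.6 (SD, n = 4) and 222 ± 6.15 CPM (SD, n = 4), and with siRNA 2 the mRNA fell by 13.4% (log2 fold change -0.21, SE 0.046, adjusted p = 0.00202). Rps3 (ENSMUSG00000030744, chr7:99477896-99483738, minus strand) encodes a head protein at the mRNA entry channel that also takes part in DNA repair. It had 709, 703 and 696 CPM with control siRNA, 644, 658, 686 and 673 CPM with siRNA 1, and 644, 634, 607 and 632 CPM with siRNA 2. The libraries of both CMTR1 siRNAs lay below all 3 controls. The mean went from 703 ± 6.49 to 629 ± 15.7 CPM with siRNA 2, lower by 10.4% (log2 fold change -0.16, SE 0.041, adjusted p = 0.00796). No 75-nt word of the Rps3 transcript used occurred in another gene.

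Rps10, Rps12 and Rps16 of the head and beak also fell. Rps10 (ENSMUSG00000052146, chr17:27630418-27636669, minus strand) encodes a head protein that is ubiquitinated when ribosomes collide. It had 31.4, 29.0 and 32.97 CPM with control siRNA, 30.4, 30.4, 27.2 and 27.8 CPM with siRNA 1, and 22.6, 28.8, 25.3 and 23.8 CPM with siRNA 2. Its siRNA 2 libraries lay below the controls, replicate 2 by little. With means of 31.1 ± 2.01 (control siRNA) and 25.1 ± 2.67 CPM (siRNA 2), the mRNA fell by 18.8% (log2 fold change -0.30, SE 0.086, adjusted p = 0.0197), the lowest log2 fold change of any member. It rested on 159 to 247 reads per library, 20.6% of its exon bases lay in another gene on the same strand, and the call was lost without control replicate 1 or 3 or siRNA 2 replicate 1 or 4, with an adjusted p of up to 0.124. Rps12 (ENSMUSG00000061983, chr10:23785183-23787275, minus strand), the beak protein with the highest level above, had 636, 641 and 634 CPM with control siRNA, 600, 594, 605 and 584 CPM with siRNA 1, and 608, 581, 560 and 568 CPM with siRNA 2. Libraries of both CMTR1 siRNAs were below every control library. From a mean of 637 ± 3.85 CPM it fell by 9.08% to 579 ± 20.9 CPM with siRNA 2 (log2 fold change -0.14, SE 0.041, adjusted p = 0.0251), and 89.5% of the transcript's words occurred in other genes, mostly pseudogenes. The call was lost in 5 of the 11 fits that each left out a library (control replicate 1, 2 or 3, or siRNA 2 replicate 3 or 4), with an adjusted p of up to 0.0977, and also with a replicate block in the fit. Rps16 (ENSMUSG00000037563, chr7:28350652-28353155, plus strand), whose product reaches from the head to the tRNA sites, had 359, 363 and 331 CPM with control siRNA, 329, 342, 342 and 347 CPM with siRNA 1, and 335, 317, 316 and 312 CPM with siRNA 2. Control replicate 3 lay within the range of both CMTR1 siRNAs, so no group stood apart. With means of 351 ± 17.5 and 320 ± 10.3 CPM, the gene fell by 8.78% with siRNA 2 just past the threshold (log2 fold change -0.13, SE 0.044, adjusted p = 0.0486). It kept the call in 4 of the 11 fits that left out a library, lost it with a replicate block, without a filter on low counts and with 2 groups only, and its adjusted p went up to 0.235 over the alternatives.

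Of the 17 proteins of the body and platform, Rps27 and Rps9 fell with siRNA 2. The group's median log2 fold change was -0.078 with siRNA 2 and -0.082 with siRNA 1, so the order of the groups differed between the siRNAs. The grouping into head and body carries no test. Rps27 (ENSMUSG00000090733, chr3:90212522-90213651, minus strand) encodes a zinc-finger protein of the platform side. It had 241, 239 and 234 CPM with control siRNA, 218, 222, 230 and 227 CPM with siRNA 1, and 205, 204, 208 and 213 CPM with siRNA 2. The 3 groups formed 3 separate ranges, siRNA 2 lowest. Means were 238 ± 3.83 (SD, n = 3), 224 ± 5.17 (SD, n = 4) and 208 ± 4.31 CPM (SD, n = 4), with a fall of 12.7% with siRNA 2 (log2 fold change -0.20, SE 0.045, adjusted p = 0.00259). Its start carries the run of 9 pyrimidines printed above, and 98.5% of its transcript's words occur in other genes, Rps27rt among them. Rps9 (ENSMUSG00000006333, chr7:3703993-3706897, plus strand), a body protein that binds the ribosomal RNA early in assembly, had 572, 565 and 564 CPM with control siRNA, 520, 542, 545 and 545 CPM with siRNA 1, and 526, 520, 498 and 513 CPM with siRNA 2. Every library of either CMTR1 siRNA was below every control. The mean of 567 ± 4.56 CPM with control siRNA became 515 ± 12.3 CPM with siRNA 2, lower by 9.25% (log2 fold change -0.14, SE 0.041, adjusted p = 0.0215), a call that was lost without control replicate 1, 2 or 3, with an adjusted p of up to 0.0751. Rps3, Rps27 and Rps29 kept their calls in all 11 fits that left out a library.

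**Figure D2:**
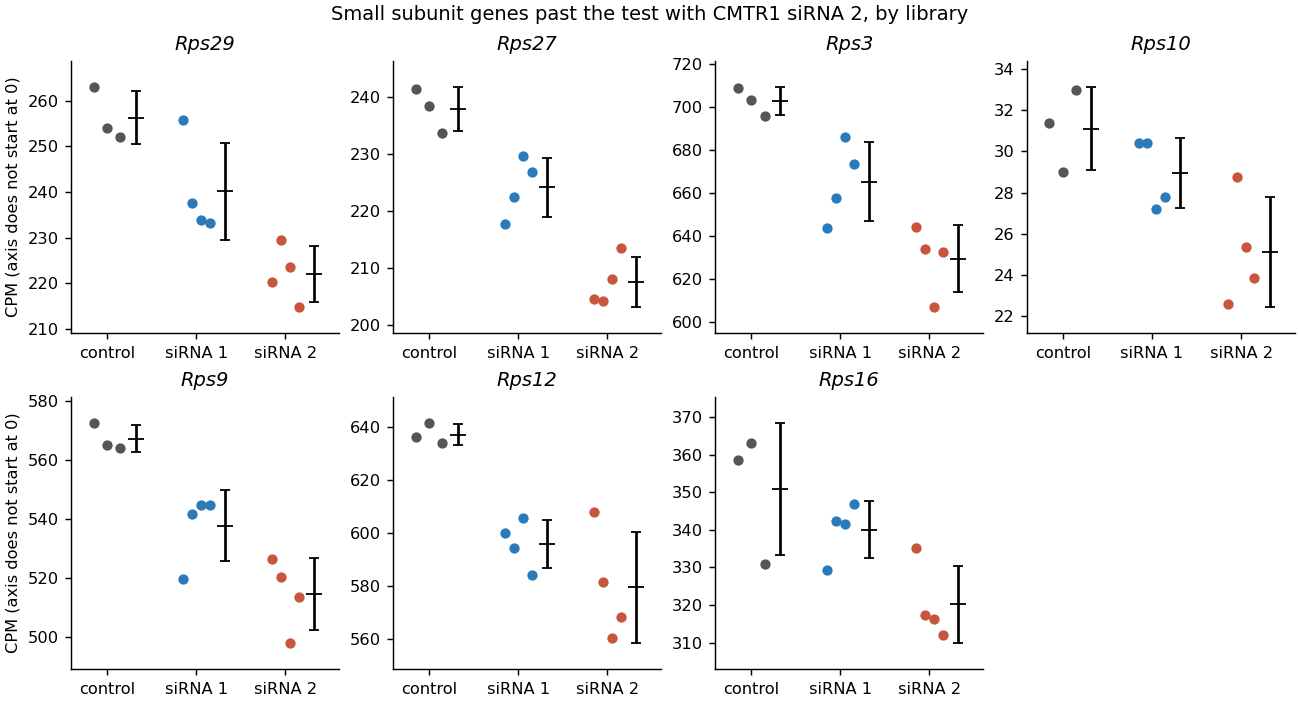
CPM in every library for 7 small subunit genes that fell with CMTR1 siRNA 2, with group mean and SD as horizontal and vertical bars and axes that do not start at 0. The siRNA 2 libraries lie below all control libraries in every gene drawn but Rps16, where control replicate 3 lies among them.

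The members with the highest log2 fold changes with siRNA 2 were Rps7, Rps27a and Rps27l. Rps7, a body protein, had 318, 303 and 297 CPM with control siRNA, 302, 292, 311 and 303 CPM with siRNA 1, and 316, 299, 296 and 311 CPM with siRNA 2. The ranges of the 3 groups overlapped. The log2 fold change with siRNA 2 was -0.0025 (95% interval -0.089 to 0.084, adjusted p = 0.983). Rps27a, made as a fusion of ubiquitin with a beak protein, had 296, 309 and 274 CPM with control siRNA, 270, 268, 299 and 289 CPM with siRNA 1, and 308, 282, 280 and 298 CPM with siRNA 2. Here too the groups overlapped, with a log2 fold change of -0.0070 with siRNA 2 (95% interval -0.10 to 0.089, adjusted p = 0.955). The log2 fold changes of the other 22 members tested without a call ranged down to -0.13 in Rps15a (adjusted p = 0.0768).

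With CMTR1 siRNA 1 0 of 33 members fell and 0 rose, whereas 1.97% of all genes tested fell and 2.71% rose. At an unadjusted p under 0.05 there were 5 members (15.2%, against 16.8% of all genes tested), and DESeq2 and edgeR with TMM factors each called 1, Rps21. The log2 fold change was nonetheless below 0 in 32 of 33 members under each scaling tried, against 43.2% of all genes tested with scaling to total counts and 48.9% with TMM factors. With total counts the median was -0.067 (4.56% lower) over members against 0.024 over all genes tested. In 10 members every siRNA 1 library lay below every control library, against 6.23% of all genes tested. The head and beak genes had a median of -0.059 and the body and platform genes one of -0.082. The differences from control were thus in the same order of size as with siRNA 2 and fell short of the test gene by gene. Both comparisons use the same 3 control libraries, so they are not independent of each other.

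Rps21, Rps4x and Rps10 had the lowest log2 fold changes with siRNA 1. Rps21 (chr2:180257377-180258445, plus strand), a small body protein, had 230, 239 and 232 CPM with control siRNA, 207, 209, 226 and 207 CPM with siRNA 1, and 227, 220, 209 and 218 CPM with siRNA 2. The libraries of both CMTR1 siRNAs lay below the controls, siRNA 2 replicate 1 and siRNA 1 replicate 3 by little. At a log2 fold change of -0.14 (SE 0.047, adjusted p = 0.0787) with siRNA 1 and -0.097 (SE 0.047, adjusted p = 0.198) with siRNA 2 it missed the test, and it passed with siRNA 1 when siRNA 1 replicate 3 was left out, the only member then called. Rps4x (chrX:102184941-102189394, minus strand), a body protein, had 651, 653 and 608 CPM with control siRNA, 548, 584, 629 and 614 CPM with siRNA 1, and 636, 601, 591 and 620 CPM with siRNA 2. Control replicate 3 lay inside the range of both CMTR1 siRNAs, and siRNA 1 replicate 1 was lowest. Its log2 fold change was -0.10 with siRNA 1 (adjusted p = 0.218) and -0.059 with siRNA 2 (adjusted p = 0.457). Among the genes that fell with siRNA 2, the log2 fold change with siRNA 1 was -0.10 in Rps10, -0.097 in Rps12, -0.095 in Rps29, -0.085 in Rps27, -0.079 in Rps3, -0.077 in Rps9 and -0.045 in Rps16, with adjusted p from 0.196 in Rps12 to 0.676 in Rps16.

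The highest log2 fold changes with siRNA 1 were those of Rps27rt, Rps28 and Rps18. Rps28, a head protein near the mRNA exit, had 240, 223 and 238 CPM with control siRNA, 245, 227, 239 and 220 CPM with siRNA 1, and 241, 227, 222 and 208 CPM with siRNA 2. Its groups overlapped with both siRNAs, and its log2 fold change was -0.0085 with siRNA 1 (adjusted p = 0.958) and -0.060 with siRNA 2 (adjusted p = 0.496). Rps18, a head protein at the contact with the large subunit, had 480, 501 and 487 CPM with control siRNA, 496, 475, 488 and 486 CPM with siRNA 1, and 477, 465, 453 and 449 CPM with siRNA 2. Here the siRNA 1 libraries overlapped the control range and the siRNA 2 libraries lay below it, with log2 fold changes of -0.0091 (adjusted p = 0.947) and -0.086 (adjusted p = 0.199). Rps27rt had 0.762, 1.36 and 1.21 CPM with control siRNA, 0.890, 1.37, 1.58 and 1.20 CPM with siRNA 1, and 1.14, 1.07, 0.944 and 1.11 CPM with siRNA 2. At this depth its log2 fold changes of 0.20 (SE 0.35) and -0.057 (SE 0.36) do not show a direction.

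**Figure D3:**
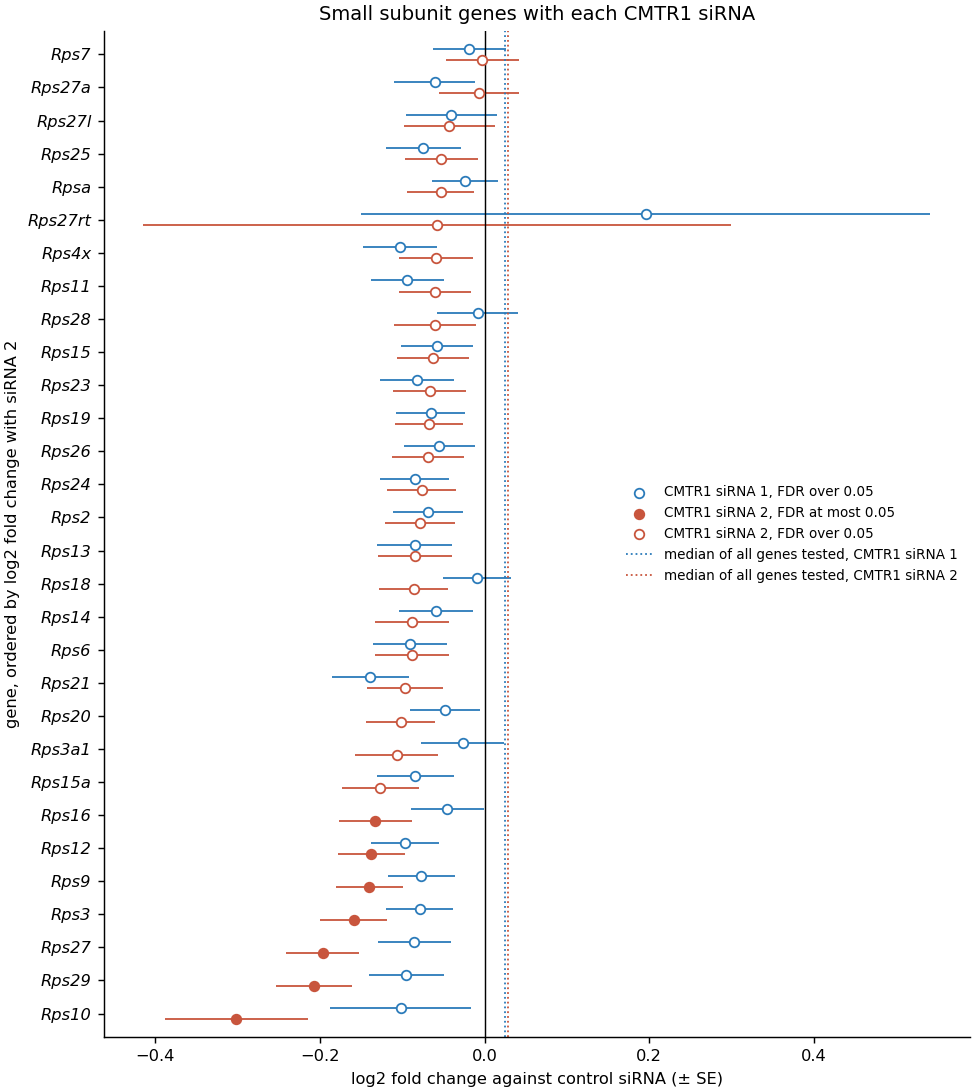
Log2 fold change against control siRNA with its SE for 30 of the 33 members tested, in blue for CMTR1 siRNA 1 and red for CMTR1 siRNA 2, filled where the adjusted p was at most 0.05, with dotted lines at the medians of all genes tested (0.024 and 0.029). All but Rps27rt with siRNA 1 lie left of 0, and the 7 filled points are all of siRNA 2.

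Paralogs were set beside the genes they resemble. Rps27l, a paralog of Rps27 and a target of p53, had 127, 120 and 113 CPM with control siRNA, 108, 121, 120 and 117 CPM with siRNA 1, and 124, 115, 109 and 118 CPM with siRNA 2. Its groups overlapped, with log2 fold changes of -0.041 (adjusted p = 0.781) and -0.043 (adjusted p = 0.702), where Rps27 itself fell with siRNA 2. The difference between the paralogs was not tested. Rps4l, a paralog of Rps4x that is annotated as a transcribed processed pseudogene and so is no member, had 251, 273 and 260 CPM with control siRNA, 268, 274, 250 and 250 CPM with siRNA 1, and 279, 283, 242 and 233 CPM with siRNA 2. Its log2 fold changes were -0.0057 and -0.013 (adjusted p = 0.974 and 0.925), and siRNA 2 replicates lay on both sides of the controls.

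Averaged over both CMTR1 siRNAs, 4 of 33 members fell and 0 rose, against 2.72% and 4.19% of all genes tested. They were Rps29 (log2 fold change -0.15, adjusted p = 0.0148), Rps27 (-0.14, adjusted p = 0.0201), Rps3 (-0.12, adjusted p = 0.0332) and Rps12 (-0.12, adjusted p = 0.0388). All 4 had also fallen with siRNA 2 alone, which makes up an equal share of this average. The median log2 fold change over members was -0.074, against 0.025 over all genes tested. The number was 0 without control replicate 1 or 2, 1 without control replicate 3 and 2 without siRNA 1 replicate 2. Over all genes tested, 437 fell with all libraries and 356, 233, 203 and 350 in those fits. The number of members was 2 without a filter on low counts and 2 with a replicate block, and Rps3 and Rps12 lost the call in both. With TMM factors it was 6 and with DESeq2 7. Among members that share at most 10% of their words it was 1.

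CMTR1 siRNA 2 was then compared with CMTR1 siRNA 1, which asks whether the siRNAs differ from each other. Of 33 members 1 was lower with siRNA 2 and 0 were higher, against 2.96% and 4.49% of all genes tested. The number was 0 without siRNA 1 replicate 2 or siRNA 2 replicate 4, and 2, Rps10 among them, without siRNA 2 replicate 2. In Rps27 and Rps29 the siRNA 2 libraries lay below all siRNA 1 libraries, and neither passed the test (log2 fold change -0.11 in both, adjusted p = 0.0957 and 0.102). The log2 difference was below 0 in 22 of 33 members (49.5% of all genes tested), with a median of -0.029 against 0.0018. Both rested in part on single libraries, as leaving out siRNA 2 replicate 3 gave 18 members and a median of -0.0067, and leaving out siRNA 2 replicate 1 gave 28 members and -0.037. For Rps3, Rps9, Rps10, Rps12, Rps16, Rps27 and Rps29, which fell with siRNA 2, no difference between the siRNAs passed the test with all libraries.

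The members were also followed library by library, as the log2 ratio of CPM to the mean of the control libraries (the other control libraries for a control) with 0.1 CPM added. In the control libraries 16, 8 and 24 of 33 members were below that mean, with medians of 0.010, 0.030 and -0.030. With siRNA 1 the numbers were 31, 30, 23 and 32, with medians of -0.093, -0.080, -0.025 and -0.054. With siRNA 2 they were 26, 31, 33 and 30, with medians of -0.039, -0.080, -0.13 and -0.083. Within a group the range of these medians was thus near the size of the difference from control, and their SD was 0.033. Over all genes tested, between 42.1% and 48.5% lay below the control mean in the libraries of the CMTR1 siRNAs. The 34 members together took 1.30%, 1.32% and 1.29% of counts with control siRNA, 1.23%, 1.23%, 1.28% and 1.25% with siRNA 1, and 1.26%, 1.23%, 1.18% and 1.22% with siRNA 2. This share was lower in each library of the CMTR1 siRNAs than in any control library. Its mean was 1.30% ± 0.0193 (SD, n = 3) with control siRNA, 1.25% ± 0.0217 (SD, n = 4) with siRNA 1 and 1.22% ± 0.0314 (SD, n = 4) with siRNA 2.

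**Figure D4:**
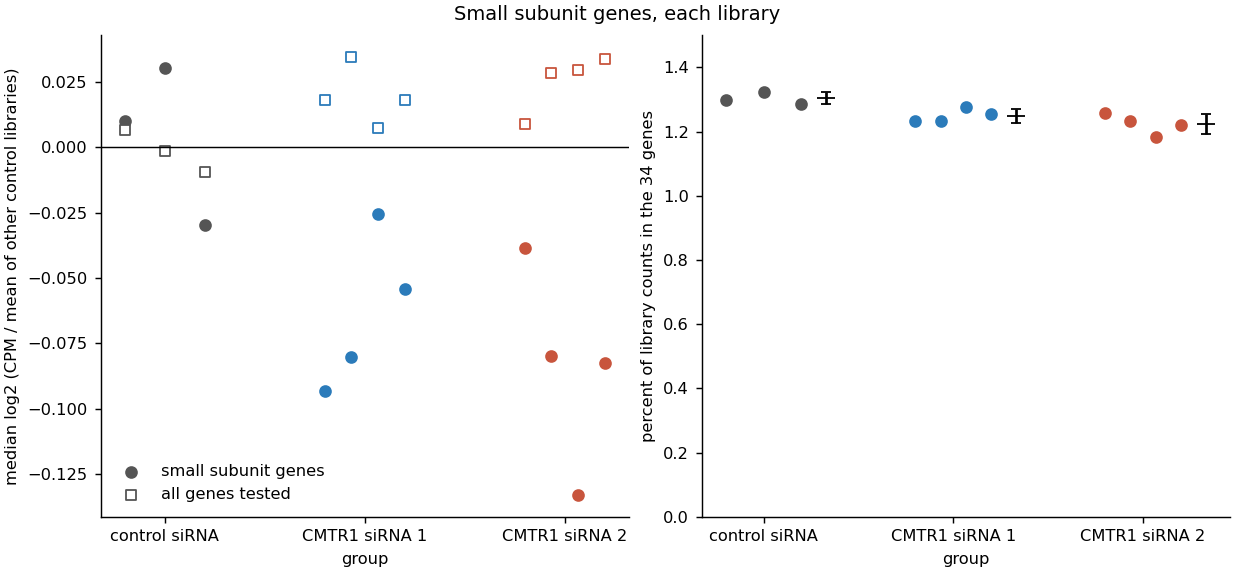
Left, the median log2 ratio to the control mean in each library over the members tested (filled circles) and over all genes tested (open squares), and right, the percentage of each library's counts that the 34 members took, with group mean and SD. The members' medians lie below 0 in all 8 libraries of the CMTR1 siRNAs, with siRNA 1 replicate 3 at -0.025 and siRNA 2 replicate 3 at -0.13.

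**Figure D5:**
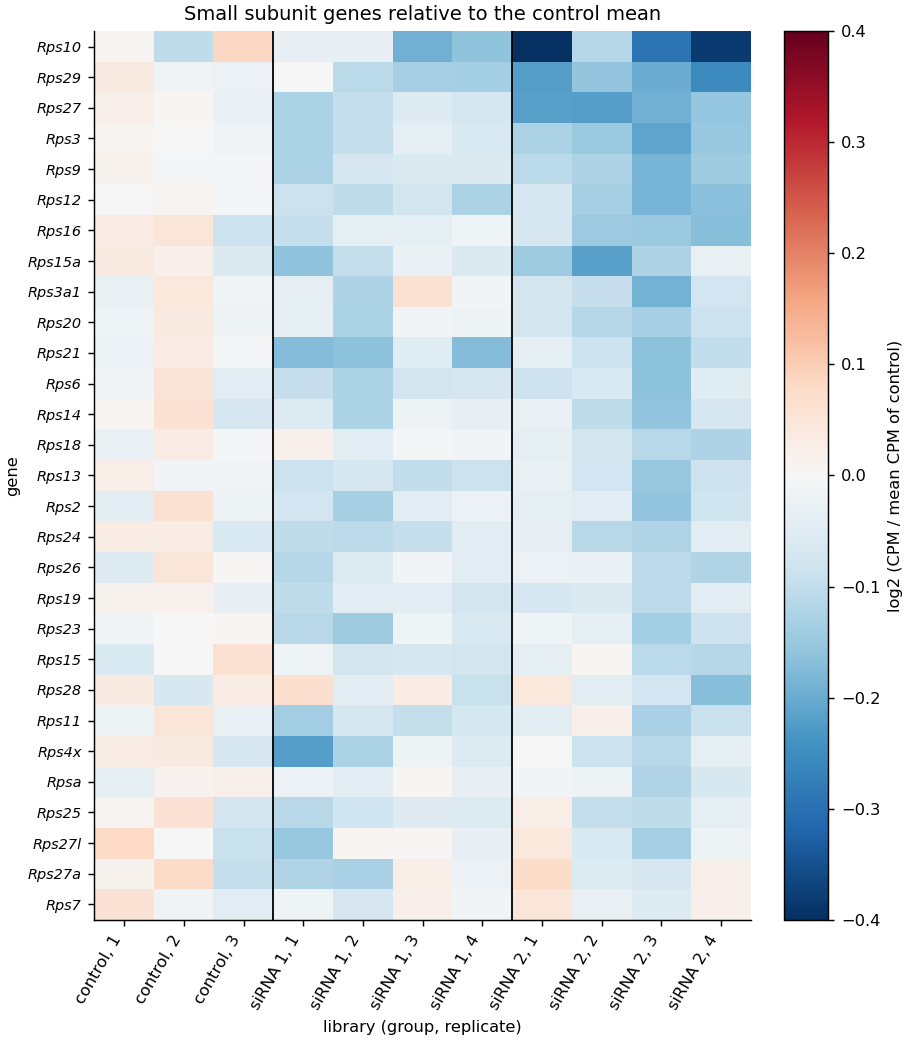
Log2 ratio of CPM to the control mean for 29 members (lines, in order of their difference with siRNA 2) in each of the 11 libraries, without Rps27rt and Rps12-ps3, and with values past the ends of the colour scale drawn in its end colour. Blue, below the control mean, prevails in siRNA 2 replicate 3 for all members drawn, and Rps10, Rps29 and Rps27 are darkest with siRNA 2.

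Fau and Rack1 encode small subunit proteins whose symbols the rule does not take. Fau, made as a fusion with a ubiquitin-like protein, had 220, 253 and 243 CPM with control siRNA, 213, 211, 219 and 222 CPM with siRNA 1, and 210, 218, 204 and 203 CPM with siRNA 2. Its siRNA 2 libraries lay below the controls while siRNA 1 replicate 4 did not. The log2 fold change was -0.14 with siRNA 1 (adjusted p = 0.0794), and with siRNA 2 the gene fell by 12.5% (log2 fold change -0.19, adjusted p = 0.00634). Rack1, a scaffold protein on the head, had 1046, 1072 and 1079.6 CPM with control siRNA, 1007, 1017, 1029 and 1009.8 CPM with siRNA 1, and 995, 1007, 943 and 976 CPM with siRNA 2. All libraries of both CMTR1 siRNAs were below its controls, with a log2 fold change of -0.069 with siRNA 1 (adjusted p = 0.383) and a fall of 8.02% with siRNA 2 (log2 fold change -0.12, adjusted p = 0.0429).

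Calls in the lists below stand beside 1.97% of all genes tested lower and 2.71% higher with siRNA 1, and 3.55% lower and 6.17% higher with siRNA 2. Among the large subunit genes, 51 of 57 were tested. With siRNA 1, 4 fell and 0 rose (median log2 fold change -0.069), and with siRNA 2, 12 fell and 0 rose (median -0.087), medians close to those of the small subunit. Rplp0, a protein of the stalk, and Rpl13a fell with both siRNAs, and Rpl22l1 and Rpl10l with siRNA 1 alone, while no small subunit member passed the test with both. In Rplp0 the mean went from 727 ± 16.7 CPM to 639 ± 15.9 with siRNA 1 (log2 fold change -0.18, adjusted p = 0.00386) and 623 ± 22.2 with siRNA 2 (log2 fold change -0.22, adjusted p = 0.000268). Genes for the assembly of the small subunit had medians near 0, at 0.0022 and 0.027 over 53 genes, with 0 lower and 1 higher with siRNA 1 (Pno1) and 2 lower (Rrp9 and Utp14a) and 2 higher (Nol11 and Pno1) with siRNA 2. Pno1, which helps to form the platform and to process the ribosomal RNA, rose with both siRNAs. Its means were 76.5 ± 4.75, 90.9 ± 6.02 and 98.4 ± 2.99 CPM (log2 fold changes 0.25 and 0.36, adjusted p = 0.00797 and 4.07e-05). Of 19 genes for eIF3, eIF1 and eIF1A, initiation factors that bind the small subunit, 0 were called with siRNA 1 and 3 rose with siRNA 2 (Eif3j1, Eif3j2 and Eif1ax), with medians of -0.011 and 0.0040. Of 15 genes for the control of TOP mRNAs by mTOR, Tsc2 rose with siRNA 1 and Larp4 fell with siRNA 2, with medians of 0.011 and -0.053. The mitochondrial small subunit, a separate ribosome's, had medians of 0.0054 and 0.015 over 29 genes, with 1 higher with siRNA 1 and 2 higher with siRNA 2, Mrps17 with both and Mrps7 with siRNA 2. With TMM factors the medians with siRNA 1 and siRNA 2 were -0.087 and -0.10 for the small subunit, -0.089 and -0.11 for the large subunit, -0.018 and 0.0027 for assembly, -0.031 and -0.021 for the initiation factors, -0.0091 and -0.078 for the control of TOP mRNAs and -0.015 and -0.010 for the mitochondrial small subunit, so the sign of the medians near 0 depended on the scaling. Differences between lists were not tested.

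Markers of cell type were set beside these values. All 10 embryonic stem cell markers were tested, and 7 fell with siRNA 1 and 5 with siRNA 2. Their summed level, led by Pou5f1, was 2087, 2203 and 2136 CPM with control siRNA, 1763, 1818, 1951 and 1890.0 CPM with siRNA 1, and 1891, 1922, 1859 and 1943 CPM with siRNA 2, lower in every library of the CMTR1 siRNAs than in any control. Nanog (log2 fold changes -0.57 and -0.54), Klf4 (-0.40 and -0.61), Esrrb (-0.34 and -0.55), Fgf4 (-0.52 and -0.43) and Zfp42 (-0.32 and -0.31) fell with both siRNAs. Of 6 neural markers 4 were tested, led by Nes, which rose with both siRNAs, and their sum was 151 to 153 CPM with control siRNA, 164 to 186 CPM with siRNA 1 and 160 to 192 CPM with siRNA 2, with Neurog2 at or near 0. No other neural marker was called, and the log2 fold changes with siRNA 1 and siRNA 2 were 0.25 and 0.028 in Sox1, 0.38 and -0.30 in Pax6 and -0.019 and 0.011 in Tubb3. Of 8 fibroblast markers 6 were tested. Their sum, led by Col1a2, was 31.995, 25.9 and 32.3 CPM with control siRNA, 32.4, 32.8, 31.0 and 29.1 CPM with siRNA 1, and 38.4, 41.6, 37.6 and 42.8 CPM with siRNA 2, with Col1a1 and Dcn higher and Col3a1 lower with siRNA 2 and Lum and Postn at or near 0. Of the endoderm (5 of 6 tested, led by Dab2), mesoderm (3 of 5, led by Kdr) and trophoblast markers (5 of 6, led by Tfap2c), 0 were called with either siRNA. The part of these markers in the small subunit result was not tested.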

How the data were processed

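The authors deposited read counts per gene for each library. Their methods and labels name Cutadapt for trimming, STAR for alignment (GRCm38), Picard for removing duplicates and featureCounts for counting. Versions and the strand setting are not given in the sources used here. In 10 of 11 files, summary lines in the layout of HTSeq-count followed the genes and were set aside, among them 5314618 to 6998875 reads in no feature and 787556 to 974693 reads not unique per library. Gene symbols and lengths came from GENCODE for GRCm38, which held 54809 of 54838 identifiers.

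From these counts, CPM were computed and tested with edgeR 4.0.16 in R 4.3.3 (quasi-likelihood, a fit of 3 groups over 11 libraries, scaled to total counts, genes over 1 CPM in at least 4 libraries, Benjamini-Hochberg over 16073 genes, adjusted p of at most 0.05). SE was the log2 fold change divided by the root of F, and 95% intervals span 1.96 SE. Shared 75-nt words were searched on both strands of annotated transcripts. Alternatives were TMM factors, DESeq2 1.42.0, exactTest, other filters, other library sizes, 2 groups only and a replicate block. Others were removing a smoothed trend (lowess) of log2 fold change on exon length, leaving out each library, and members sharing few words. Python 3.11.15 was used for summaries. Members and lists were chosen with earlier results of these data known. Genes were named if called, at either end of the fold changes or levels, below the filter, with a paralog, named by the study, or called with both siRNAs in another list. Those outside that rule were named after their values were seen. Some genes are not reported here.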

Additional observations from a re-analysis of the deposited data

Results flagged for a closer look

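In 5 of 72 groups of 4 libraries, each the CPM of a member or of Cmtr1 or a summary over members within the libraries of 1 CMTR1 siRNA, a library stood apart from the other 3 by more of the group's range than the 95% critical value of Dixon's test for 4 values. Chance marks about 1 in 20 such groups. All 5 were in the siRNA 1 group. Replicate 3 was highest for Rps21 at 226 CPM (0.916 of the range), and replicate 1 was highest for Rps15 at 424 CPM (0.900) and lowest for Rps9 at 520 CPM (0.879).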

How the results depend on the processing

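The members' median log2 fold changes kept their sign under every alternative run and moved by less than 0.033, the SD of library medians within groups. Leaving out a library gave -0.081 to -0.046 with siRNA 1, -0.093 to -0.061 with siRNA 2, -0.085 to -0.060 for the mean of both and -0.037 to -0.0067 for siRNA 2 against siRNA 1. Cmtr1 was not called in any fit (log2 fold change -0.17 to -0.015 and -0.33 to -0.20 leaving out a library).

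The number of members that fell with siRNA 1 was 0, and 1 with TMM factors or DESeq2, and 0 to 1 leaving out a library. With siRNA 2 it was 8, and 7 to 10 in other settings, 3 among members sharing at most 10% of words (11 tested) and 4 to 8 leaving out a library. For the mean of both it was 4, and 2 without a filter, 7 with DESeq2, 6 with TMM factors, 1 among members sharing few words and 0 to 5 leaving out a library. For siRNA 2 against siRNA 1 it was 1, and 0 to 2 leaving out a library. Fewer genes (members sharing few words) or fewer libraries enter some of these, and otherwise the cause was not tested. The mean of both was not computed with exactTest or with 2 groups only. Of 328 values of single genes 281 kept their side of the threshold, 47 lost it and 0 changed sign.

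Deviations of same-numbered libraries had a mean correlation of 0.0096 (10 pairs, -0.057 to 0.062) and others -0.0032 (30 pairs). No pairing by replicate number was thus seen, though so few pairs cannot exclude shared cultures. With the replicate block, 0 members fell with siRNA 1, 7 with siRNA 2 (Rps12 and Rps16 lost, Rps15a gained) and 2 for the mean of both (Rps3 and Rps12 lost), 1 was lower with siRNA 2 than with siRNA 1, and the medians were -0.071, -0.085, -0.076 and -0.030. The block gave log2 fold changes of -0.10 and -0.26 for Cmtr1.

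The split of all genes differed between settings. TMM factors gave 400 lower and 346 higher with siRNA 1 (316 and 435 with total counts) and 734 and 728 with siRNA 2 (571 and 991), and DESeq2, which changes the test as well as the scaling, 326 and 195, and 549 and 409.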
